A study of Homo sapiens with 8 samples.

Results

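Coagulation and plasminogen activation were followed through 8 genes: F3, TFPI, TFPI2, THBS1, PLAU, PLAT, PLAUR and SERPINE2. They were taken by symbol from a table of 29991 gene entries measured by RNA-seq of polyadenylated RNA. Each symbol had 1 entry. Of the 8, 7 were measured above the table's lower limit and could be tested, and TFPI2 lay at that limit in every library. The cells were MCF10A, an immortalised, non-tumorigenic line of human breast epithelium. There were 4 groups of 2 libraries. Cells of siControl received a control siRNA, those of siLATS1/2 siRNA against LATS1 and LATS2, those of sip53 siRNA against p53, and those of siLATS1/2/p53 siRNA against all of these. No group was left without siRNA, and the labels used here give no time after transfection. The libraries numbered 1 came from 1 batch of cells and those numbered 2 from another, independent batch, so every group held 1 library of each batch, all from 1 cell line.

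Blood clotting outside vessels starts when tissue factor, the membrane protein encoded by F3, binds factor VIIa. TFPI encodes tissue factor pathway inhibitor, which blocks that complex, and TFPI2 encodes a related Kunitz-type protease inhibitor. Fibrin is dissolved by plasmin, which is made from plasminogen by urokinase (PLAU) and tissue-type plasminogen activator (PLAT). Epithelial cells hold urokinase at the surface on its receptor, encoded by PLAUR, where it takes part in matrix breakdown and migration. SERPINE2 encodes protease nexin-1, a serpin that inhibits thrombin and both plasminogen activators. THBS1 encodes thrombospondin 1, a secreted glycoprotein first known from platelets that binds matrix proteins and can activate latent TGF-beta. LATS1 and LATS2 are the Hippo pathway kinases that restrain YAP and TAZ, cofactors of the TEAD transcription factors, and p53 is a stress-activated transcription factor.

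The promoters of the 3 genes that differed most from siControl in the combined knockdown are shown to place motifs of TEAD and of AP-1, a dimer of JUN and FOS proteins, beside the values. Each is the 250 bases before the RefSeq start site on GRCh38.p14, written 5′ to 3′ on the gene's strand, with capitals marking the TEAD motif CATTCC or the AP-1 motif TGANTCA on either strand.
F3, chr1:94541760-94542009, minus strand: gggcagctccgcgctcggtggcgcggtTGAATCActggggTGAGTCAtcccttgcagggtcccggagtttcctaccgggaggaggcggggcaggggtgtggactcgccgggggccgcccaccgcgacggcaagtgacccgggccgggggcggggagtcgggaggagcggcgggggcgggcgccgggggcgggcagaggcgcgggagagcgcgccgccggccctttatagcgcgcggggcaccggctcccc
THBS1, chr15:39580829-39581078, plus strand: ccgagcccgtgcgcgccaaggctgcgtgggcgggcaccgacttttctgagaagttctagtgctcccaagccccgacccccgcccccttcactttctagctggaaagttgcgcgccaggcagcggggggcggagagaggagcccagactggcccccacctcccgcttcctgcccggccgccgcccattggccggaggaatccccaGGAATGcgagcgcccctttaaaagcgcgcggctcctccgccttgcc
PLAUR, chr19:43670170-43670419, minus strand: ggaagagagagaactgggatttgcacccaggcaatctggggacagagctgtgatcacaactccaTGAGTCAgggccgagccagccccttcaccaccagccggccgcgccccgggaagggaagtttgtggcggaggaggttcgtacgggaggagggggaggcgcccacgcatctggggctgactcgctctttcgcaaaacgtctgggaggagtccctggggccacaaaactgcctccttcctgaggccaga

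Counted from the start site, the F3 window held AP-1 matches beginning at -223 and -210, and its TATAAA motif, read on the opposite strand, began at -28. The THBS1 window held 1 TEAD match, at -46, read on the opposite strand, and the PLAUR window held 1 AP-1 match, at -186. The only other match to these motifs among the members' windows was an AP-1 match at -87 of TFPI2. Promoter windows were found for 7 of the 8 members, 9 windows in all, and none held a p53 half-site or a CArG box, the serum response factor motif. The member without a window was PLAT, so its promoter was not searched for any motif. Among 35116 promoter windows of the same length, CATTCC occurred in 11.9%, TGANTCA in 6.57%, TATAAA in 10.7%, the p53 half-site in 5.57% and the CArG box in 1.16%. A match describes the letters in the window and shows neither binding nor its absence.

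The deposited values were log2 expression levels with a lower limit of 5, which is 32 on the linear scale. From the spacing of low linear values they were taken as not divided by gene length, though the scaling is not named. Levels were therefore compared between groups for a gene and never between genes. Each library had 11756 to 12064 entries above the limit, and its depth, estimated from the spacing of low values, was 11300000 to 37100000 reads. The lowest were siControl replicate 1 (12100000) and siLATS1/2/p53 replicate 1 (11300000). LATS1 fell in siLATS1/2 with a log2 difference from siControl of -1.58 ± 0.11 (SE, adjusted p = 0.0015, limma), and LATS2 with one of -1.39 ± 0.14 (adjusted p = 0.0036, limma). In siLATS1/2/p53 the differences were -1.66 and -1.29. The p53 targets CDKN1A (-2.62) and MDM2 (-1.18) fell in sip53 (adjusted p = 0.0024 and 0.0098, limma). The CDKN1A call passed in 8 of 8 fits that left out a library and the MDM2 call in 5 of 8, lost without siControl replicate 1, sip53 replicate 1 or sip53 replicate 2 (-1.11, -1.22 and -1.13, adjusted p = 0.0626, 0.0678 and 0.0893, limma). All 9 markers of basal breast epithelium were above the limit in every library, and all 6 markers of blood cells and platelets and all 4 of hepatocytes, the usual sources of clotting proteins, were at it. Of 6 endothelial markers only KDR rose above the limit, in the siLATS1/2/p53 libraries.

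Unless another fit is named, adjusted p-values come from 1 limma fit over the 8 libraries and are Benjamini-Hochberg values over the 12315 entries above the limit in at least 2 libraries, with 0.05 as the threshold. With 2 libraries a group, they set each difference against the spread between 2 batches of cells of 1 line. This fit leaves the batch difference in that spread. The members were chosen with earlier results of these data known, so their counts beside the shares of all entries are a description only. In siLATS1/2 against siControl, 4 of the 7 tested genes rose (F3, THBS1, PLAT and PLAUR) and 0 fell, where 2.81% of all entries rose and 4.89% fell. In sip53 against siControl, 1 rose (PLAUR) and 0 fell, where 1.76% of all entries rose and 2.1% fell. In siLATS1/2/p53 against siControl, 4 rose (F3, THBS1, PLAT and PLAUR) and 0 fell, where 9.07% of all entries rose and 5.48% fell. In siLATS1/2/p53 against siLATS1/2, PLAUR rose and F3 and THBS1 fell, where 11.3% of all entries rose and 3.22% fell. In siLATS1/2/p53 against sip53, 5 rose (F3, THBS1, PLAU, PLAT and PLAUR) and 0 fell, where 2.54% of all entries rose and 1.12% fell. With the batch as a block, every call of a member named above passed too. THBS1 and PLAU then also fell in sip53, so that 2 members fell where 10% of all entries did. TFPI then fell in siLATS1/2 (21.4% of all entries fell), a call lost when the libraries were also rescaled, and in siLATS1/2/p53 (13.8%), both against siControl. The median log2 difference of the 7 genes was 0.43 in siLATS1/2 against siControl, where that of all entries was -0.07. It was -0.21 against 0.06 in sip53, 0.54 against 0.08 in siLATS1/2/p53 against siControl, -0.13 against 0.15 in siLATS1/2/p53 against siLATS1/2, and 0.59 against 0.01 in siLATS1/2/p53 against sip53. At an unadjusted p under 0.05, 3 members passed in sip53 against siControl (THBS1, PLAU and PLAUR), and in the other 4 comparisons the members that passed were those with an adjusted p under 0.05. Of all entries, 21.4% had such an unadjusted p in sip53 and 18.0% to 33.2% in the other 4. Without the 2 shallowest libraries, a fit with fewer samples that was added after the data were seen, members called were 0, 0, 0, 0 and 1 in the 5 comparisons in this order, and 10, 0, 14, 0 and 22 of all entries passed. When only the groups compared were fitted, 0 members were called in sip53, 1 in siLATS1/2/p53 against siLATS1/2 and 2 against sip53. The comparisons share control libraries and are not independent of each other.

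**Figure D1:**
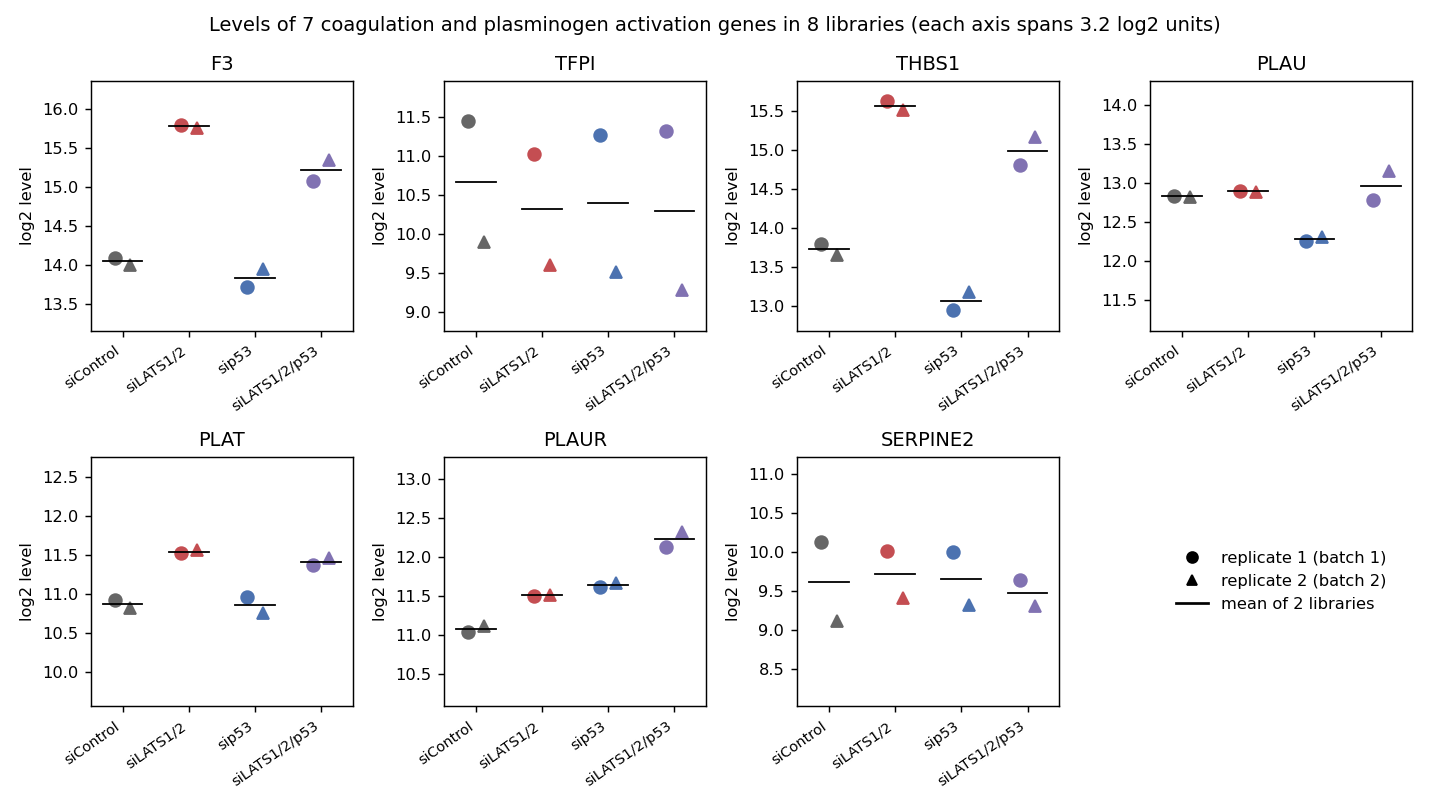
Log2 level (vertical axis) of the 7 genes above the table's lower limit in each of the 8 libraries, by siRNA group, with circles for replicate 1, triangles for replicate 2 and a line at the mean of the 2; every axis spans the same range. F3 and THBS1 stand higher in both groups given LATS1/2 siRNA, PLAUR is lowest in siControl and highest in siLATS1/2/p53, and in TFPI the circles lie above the triangles in every group.

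F3, the gene of the protein that starts coagulation, was 3.32-fold higher in siLATS1/2 than in siControl. Its log2 level was 14.09 and 14.01 in the siControl libraries, 15.80 and 15.76 in siLATS1/2, 13.73 and 13.95 in sip53, and 15.08 and 15.36 in siLATS1/2/p53. The 4 libraries given LATS1/2 siRNA were thus all above the 4 others, and siLATS1/2 was above siLATS1/2/p53. The log2 difference was 1.73 ± 0.13 (SE) in siLATS1/2 against siControl (adjusted p = 0.0016, limma). It was 1.17 in siLATS1/2/p53 against siControl (adjusted p = 0.0024, limma) and 1.38 against sip53 (adjusted p = 0.0028, limma). In sip53 F3 differed from siControl by -0.21, with a 95% confidence interval of -0.51 to 0.09 and adjusted p = 0.386 (limma). The difference was -0.36 in batch 1 and -0.06 in batch 2. With the batch as a block its interval was -0.40 to -0.02, and it did not pass (adjusted p = 0.0941, limma). Thus siControl and sip53 are neighbours whose difference passed in neither fit. The combined knockdown was lower than siLATS1/2 alone by 0.56 on the log2 scale (-0.56, adjusted p = 0.029, limma). This fall passed with the batch as a block (adjusted p = 2.5e-04, limma). That fall did not pass without siLATS1/2 replicate 1 (-0.54, adjusted p = 0.132, limma), siLATS1/2 replicate 2 (-0.58, 0.112) or siLATS1/2/p53 replicate 1 (-0.42, 0.153), whereas the 3 rises passed whichever single library was left out.

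THBS1, the thrombospondin 1 gene, had the largest rise of the members in siLATS1/2, 3.58-fold over siControl. Its log2 level was 13.80 and 13.66 in siControl, 15.63 and 15.52 in siLATS1/2, 12.95 and 13.19 in sip53, and 14.81 and 15.17 in siLATS1/2/p53. The group means ran from sip53 through siControl and siLATS1/2/p53 to siLATS1/2. The log2 difference from siControl was 1.84 ± 0.15 (SE) in siLATS1/2 (adjusted p = 0.0018, limma) and 1.26 in siLATS1/2/p53 (adjusted p = 0.0030, limma), and siLATS1/2/p53 was 1.92 above sip53 (adjusted p = 0.0015, limma). These 3 rises passed whichever single library was left out. In sip53 THBS1 was lower by 0.66 on the log2 scale (-0.66, adjusted p = 0.0553, limma), which missed the threshold and passed with the batch as a block (adjusted p = 5.2e-04, limma). The drop against siControl was -0.85 in batch 1 and -0.47 in batch 2. Against siLATS1/2, the combined knockdown was lower by 0.58 (-0.58, adjusted p = 0.0396, limma). Of the fits that left out a library, this call passed only in those without siControl replicate 1 or siLATS1/2/p53 replicate 2. Without each of the other 6 libraries the difference was -0.64 to -0.40 and the adjusted p between 0.05002 and 0.184 (limma).

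**Figure D2:**
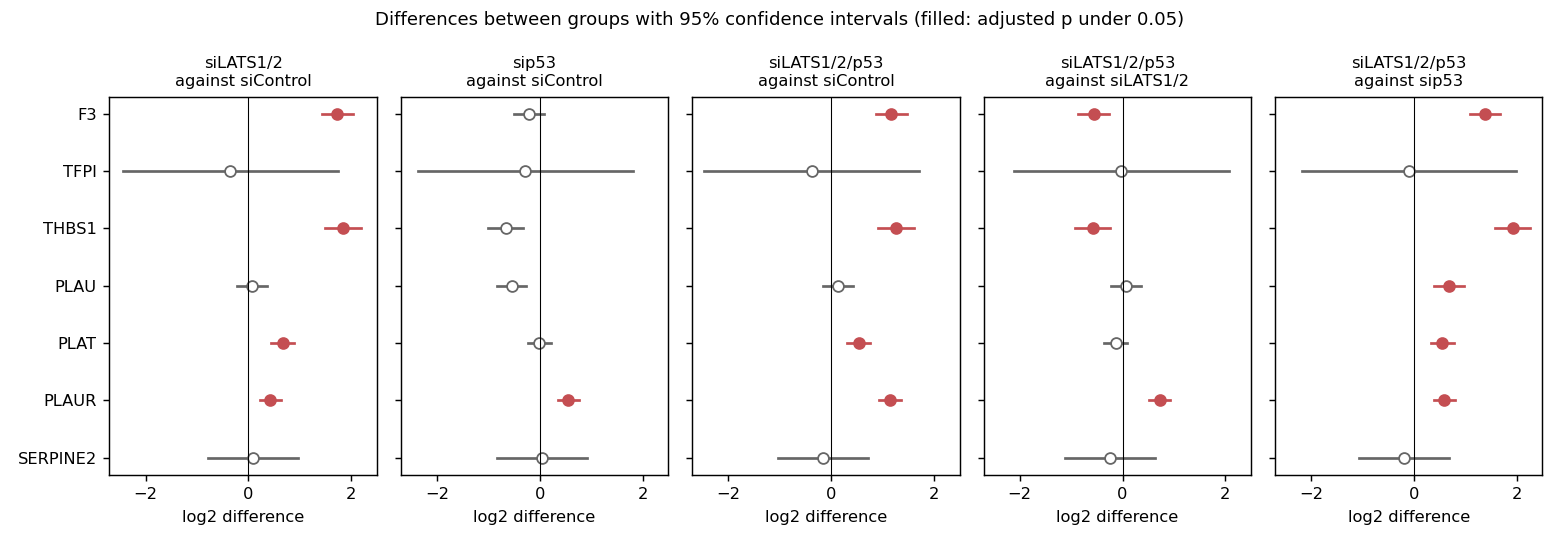
Log2 difference (horizontal axis) of the 7 tested genes in the 5 comparisons between groups, with 95% confidence intervals from limma; filled red points have an adjusted p under 0.05 and open grey ones do not. F3 and THBS1 lie far to the right in the comparisons of LATS1/2 siRNA with its control, PLAUR passes in all 5 comparisons, and the intervals of TFPI are the widest.

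Among the plasminogen activators, PLAT rose with LATS1/2 knockdown and PLAU did not pass in that comparison. PLAT, which encodes tissue-type plasminogen activator, had log2 levels of 10.92 and 10.82 in siControl, 11.52 and 11.55 in siLATS1/2, 10.96 and 10.76 in sip53, and 11.36 and 11.45 in siLATS1/2/p53. The 4 libraries given LATS1/2 siRNA were above the 4 others, while siControl and sip53 overlapped. PLAT rose by 0.66 ± 0.10 (SE) on the log2 scale in siLATS1/2 (1.59-fold, adjusted p = 0.0107, limma), by 0.54 in siLATS1/2/p53 against siControl (adjusted p = 0.0130, limma) and by 0.55 against sip53 (adjusted p = 0.0263, limma). With the batch as a block all of these rises passed (adjusted p = 4.1e-05, 1.5e-04 and 2.6e-04, limma). In sip53 the difference from siControl was -0.01, with an interval of -0.24 to 0.21. In siLATS1/2/p53 against siLATS1/2 it was -0.13, with an interval of -0.35 to 0.10, so this fit did not separate these neighbours. With the batch as a block the PLAT difference did not pass either (adjusted p = 0.2235, limma). With the block and rescaling together, 5 members were called in this comparison, where the fit with neither called 3. The value of PLAT in that rescaled fit is not given here. The rise in siLATS1/2 did not pass without siControl replicate 2 (0.61, adjusted p = 0.0562, limma), siLATS1/2 replicate 1 (0.68, 0.0822) or siLATS1/2 replicate 2 (0.65, 0.0741). The rise in siLATS1/2/p53 against siControl did not pass without siControl replicate 2 (0.49, adjusted p = 0.0520, limma) or either siLATS1/2/p53 library (0.58 and 0.49, 0.0507 and 0.0678). Of the fits that left out a library, the rise against sip53 passed only in those without a siControl library.

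PLAU, the urokinase gene, had log2 levels of 12.83 and 12.82 in siControl, 12.90 and 12.89 in siLATS1/2, 12.25 and 12.31 in sip53, and 12.77 and 13.15 in siLATS1/2/p53. The sip53 libraries were the lowest of the 8, and the siLATS1/2/p53 libraries lay on both sides of siControl and siLATS1/2. PLAU rose by 0.68 ± 0.12 (SE) in siLATS1/2/p53 against sip53 (1.61-fold, adjusted p = 0.0289, limma). This call did not pass without a siLATS1/2 library (0.68, adjusted p = 0.0588 and 0.0597, limma), a sip53 library (0.65 and 0.71, 0.149 and 0.153) or siLATS1/2/p53 replicate 2 (0.49, 0.0928). In sip53 PLAU was lower than in siControl by 0.55 on the log2 scale (-0.55, adjusted p = 0.0562, limma), and this passed with the batch as a block (adjusted p = 5.9e-04, limma). In siLATS1/2 the difference from siControl was 0.07, with an interval of -0.22 to 0.35, and in siLATS1/2/p53 it was 0.14, with an interval of -0.15 to 0.42.

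PLAUR, the urokinase receptor gene, was the member that passed in all 5 comparisons between groups, each time higher in the group with more siRNA targets. Its log2 level was 11.05 and 11.12 in siControl, 11.50 and 11.52 in siLATS1/2, 11.62 and 11.67 in sip53, and 12.13 and 12.33 in siLATS1/2/p53. The group means ran in that order, though siLATS1/2 and sip53, which were not compared, lay close together. PLAUR was 2.22-fold higher in siLATS1/2/p53 than in siControl, a log2 difference of 1.15 ± 0.09 (SE, adjusted p = 0.0011, limma) that passed whichever single library was left out. It rose by 0.43 in siLATS1/2 (adjusted p = 0.0343, limma) and by 0.56 in sip53 (adjusted p = 0.0274, limma). With the batch as a block both passed (adjusted p = 5.0e-04 and 9.7e-05, limma). Of the fits that left out a library, both passed only in those without a siLATS1/2/p53 library. Without each of the other 6, the rise in siLATS1/2 was 0.39 to 0.46 with adjusted p between 0.0691 and 0.191, and that in sip53 0.52 to 0.60 with adjusted p between 0.0660 and 0.163 (limma). The combined knockdown was 0.72 above siLATS1/2 (adjusted p = 0.0061, limma), a call lost without siLATS1/2 replicate 1 (0.71, adjusted p = 0.0543). It was 0.59 above sip53 (adjusted p = 0.0162, limma), which did not pass without sip53 replicate 1 (0.56, 0.112), sip53 replicate 2 (0.62, 0.107) or siLATS1/2/p53 replicate 2 (0.49, 0.0934).

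Of the 3 inhibitor genes, TFPI, TFPI2 and SERPINE2, 0 passed in any comparison between groups (limma), and 0 did at an unadjusted p under 0.05. TFPI2 was listed at the lower limit of 5 in all 8 libraries, which corresponds to at most an estimated 14.6 to 50 reads depending on the library. TFPI, which encodes the inhibitor of the tissue factor complex, had log2 levels of 11.44 and 9.90 in siControl, 11.03 and 9.61 in siLATS1/2, 11.27 and 9.51 in sip53, and 11.32 and 9.27 in siLATS1/2/p53. In each group the library of batch 1 was above that of batch 2, and all 4 groups overlapped. The difference from siControl was -0.35 in siLATS1/2 (95% interval -2.44 to 1.73, adjusted p = 0.854, limma), -0.28 in sip53 and -0.38 in siLATS1/2/p53. With the batch as a block, TFPI was lower than in siControl in siLATS1/2 (-0.35 ± 0.12 SE, adjusted p = 0.0336, limma) and in siLATS1/2/p53 (-0.38 ± 0.12, adjusted p = 0.0209, limma). With the block and rescaling together, the difference in siLATS1/2 did not pass (-0.27, adjusted p = 0.0970, limma), that in siLATS1/2/p53 did (-0.45, adjusted p = 0.0087, limma), and so did that in sip53 (-0.34, adjusted p = 0.0474, limma).

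SERPINE2, the gene of protease nexin-1, had log2 levels of 10.13 and 9.11 in siControl, 10.01 and 9.42 in siLATS1/2, 9.997 and 9.32 in sip53, and 9.64 and 9.30 in siLATS1/2/p53. The groups overlapped and the batch 1 library was again the higher in each. The difference between groups farthest from 0 was -0.24, in siLATS1/2/p53 against siLATS1/2, and the interval in siLATS1/2 against siControl was -0.78 to 0.97. SERPINE2 passed in no comparison with the batch as a block and no rescaling either, where that interval narrowed to -0.18 to 0.37. With the block and rescaling together, 5 members were called in siLATS1/2/p53 against siLATS1/2, where the fit with neither called 3. The value of SERPINE2 in that comparison of the rescaled blocked fit is not given here.

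The 2 batches of cells were compared through the batch term of the blocked fit, a comparison added after the data were seen. TFPI was lower in batch 2 by 1.69 on the log2 scale (-1.69 ± 0.08 SE, 3.23-fold, adjusted p = 1.2e-08, limma), and SERPINE2 by 0.66 (-0.66 ± 0.09, 1.58-fold, adjusted p = 1.5e-04, limma). The TFPI drop was -1.55 in siControl, -1.42 in siLATS1/2, -1.76 in sip53 and -2.04 in siLATS1/2/p53. For SERPINE2 it was -1.02, -0.59, -0.67 and -0.34 in the same order. The other 5 tested members did not pass, with differences between -0.04 and 0.10, and 17.8% of all entries fell in this comparison. DCN, which encodes the fibroblast proteoglycan decorin, also fell from batch 1 to batch 2 in each group, from 9.86 to 7.02 in siControl, 7.87 to the limit in siLATS1/2, 9.53 to 6.14 in sip53 and 8.39 to the limit in siLATS1/2/p53. Of the 7 fibroblast markers only DCN and COL1A1 were above the limit in any library, and COL1A1 lay between 6.60 and 7.75 with no such order. In bulk samples fewer cells of a type and less RNA per cell cannot be told apart, and the part of other cells in the batch difference was not tested.

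**Figure D3:**
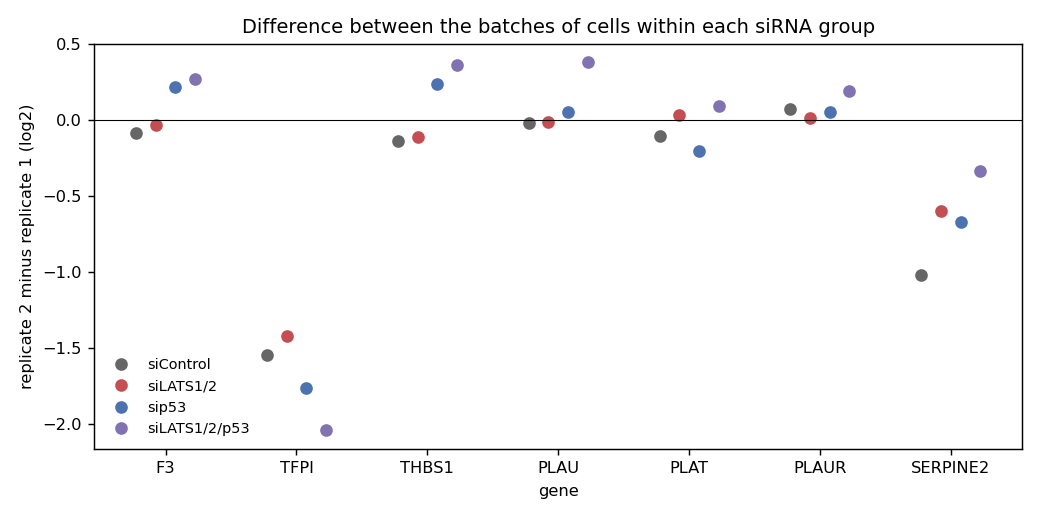
Log2 level in replicate 2 minus that in replicate 1 (vertical axis) of the 7 tested genes, 1 point for each siRNA group. The 4 points of TFPI lie between -2.04 and -1.42 and those of SERPINE2 between -1.02 and -0.34, while the points of the other 5 genes lie within 0.4 of 0.

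Whether the 2 knockdowns added up was asked of each gene by the interaction, the combined log2 difference minus the sum of the single ones. For THBS1 the single differences summed to 1.18 and the combined knockdown gave 1.26. For PLAUR the sum was 0.98 and the combined difference 1.15, and for PLAT they were 0.65 and 0.54. F3 had a sum of 1.52 and a combined difference of 1.17. In PLAU the signs differed, with a sum of -0.48 and a combined difference of 0.14. No member passed (limma), nor did any of the 12315 entries (0%), although 807 entries (6.55%) and 1 member, PLAU, had an unadjusted p under 0.05. The PLAU interaction was 0.62 ± 0.17 (SE, adjusted p = 0.74, limma) and passed with the batch as a block (0.62 ± 0.12, adjusted p = 0.0277, limma), where 1.75% of all entries had a positive interaction that passed. With the block and rescaling together it did not pass (0.52, adjusted p = 0.110, limma).

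Of 10 other tested genes of the plasminogen system reported here, 1 rose and 1 fell in siLATS1/2 against siControl. In that comparison 2.81% of all entries rose and 4.89% fell. SERPINB2, which encodes the urokinase inhibitor PAI-2, had log2 levels of 10.25 and 10.25 in siControl and 11.76 and 11.80 in siLATS1/2. It was 10.07 and 9.94 in sip53 and 11.93 and 12.06 in siLATS1/2/p53. SERPINB2 rose by 1.53 ± 0.09 (SE) in siLATS1/2 (2.88-fold, adjusted p = 5.6e-04, limma), by 1.75 in siLATS1/2/p53 against siControl and by 1.99 against sip53, and these calls passed whichever single library was left out. LRP1, the endocytic receptor that clears protease and inhibitor complexes, fell by 0.50 in siLATS1/2 (-0.50 ± 0.11, adjusted p = 0.0381, limma), a call not passed after rescaling (-0.42, adjusted p = 0.0755) and kept in 2 of 8 fits that left out a library, those without a siLATS1/2/p53 library. With the batch as a block 2 rose and 2 fell in siLATS1/2, and 3 fell in sip53. Of all entries, 10.5% rose and 21.4% fell in siLATS1/2 in that fit, 16% rose and 10% fell in sip53, and 25.5% rose and 13.8% fell in siLATS1/2/p53, each against siControl. The median of the 10 was 0.01 in siLATS1/2, 0.02 in siLATS1/2/p53 against siControl and -0.06 in sip53.

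In the coagulation cascade, 20 of 36 listed genes were at the lower limit throughout and 16 were tested. In siLATS1/2 against siControl 1 rose and 1 fell (5 and 4 with the batch as a block), and the median was 0.02. Of all entries, 2.81% rose and 4.89% fell there without the block, and 10.5% rose and 21.4% fell with it. THBD, which encodes thrombomodulin, the thrombin receptor that starts the protein C anticoagulant pathway, had log2 levels of 11.17 and 10.99 in siControl and 10.01 and 10.18 in siLATS1/2. It fell by 0.99 (-0.99 ± 0.11 SE, 1.98-fold, adjusted p = 0.0053, limma), and by 0.78 in siLATS1/2/p53 against siControl (-0.78) and 0.75 against sip53 (-0.75). The call in siLATS1/2 was lost without siLATS1/2 replicate 1 (-0.90, adjusted p = 0.0539, limma), and that against sip53 without any 1 of the 4 libraries compared (-0.82 to -0.68, adjusted p between 0.0689 and 0.117). F2R, the thrombin receptor PAR1, rose by 0.46 in siLATS1/2 (adjusted p = 0.0399, limma) and fell in siLATS1/2/p53 against siLATS1/2 (-0.49, adjusted p = 0.0236, limma). PROS1, the gene of the anticoagulant protein S, rose by 0.43 in siLATS1/2/p53 against siControl (adjusted p = 0.0418, limma). ENTPD1, an ectonucleotidase that removes platelet-activating ADP, was the only 1 of the 16 to pass in sip53 against siControl (0.47, adjusted p = 0.0448, limma). There 1.76% of all entries rose and 2.1% fell. With the batch as a block 3 of the 16 rose and 3 fell in sip53, where 16% of all entries rose and 10% fell. The rises of F2R, PROS1 and ENTPD1 passed in 0 of 8 fits that left out a library, with adjusted p from 0.0581 to 0.190, 0.0681 to 0.156 and 0.0691 to 0.233 (limma), and those of PROS1 and ENTPD1 did not pass after rescaling (0.35 and 0.41, adjusted p = 0.0631 and 0.0682). The F2R fall passed in 2 of 8, those without a siControl library.

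Of 12 tested thrombospondin genes and THBS1 partners, 2 rose and 2 fell in siLATS1/2 against siControl, 0 and 2 in sip53 (limma, where 0 rose at an unadjusted p under 0.05 also), and 1 and 3 in siLATS1/2/p53. With the batch as a block these were 2 and 4, 1 and 6, and 2 and 6. In that fit 10.5% of all entries rose and 21.4% fell in siLATS1/2, 16% and 10% in sip53, and 25.5% and 13.8% in siLATS1/2/p53. Without the block, the shares of all entries that rose and fell were 2.81% and 4.89%, 1.76% and 2.1%, and 9.07% and 5.48%. The median was -0.14, -0.24 and -0.31, where that of all entries was -0.07, 0.06 and 0.08. ADAMTS1, which encodes a protease with thrombospondin repeats, went from 6.10 and 6.83 in siControl to 9.27 and 10.03 in siLATS1/2 and was 7.69 and 8.85 in siLATS1/2/p53. Its rise was 3.19 ± 0.44 (SE; 9.10-fold, adjusted p = 0.0095, limma) in siLATS1/2, and it missed the threshold when siControl replicate 1 (2.82, adjusted p = 0.0556) or siLATS1/2 replicate 2 (2.80, 0.0640) was left out. LTBP1, the latent TGF-beta binding protein gene, fell in each of the 5 comparisons: by 0.90 in siLATS1/2 (-0.90 ± 0.07, adjusted p = 0.0018, limma), 0.41 in sip53 (-0.41) and 1.19 in siLATS1/2/p53 (-1.19) against siControl, and by 0.29 (-0.29) and 0.78 (-0.78) in siLATS1/2/p53 against siLATS1/2 and sip53. The call in sip53 passed in 0 of 8 fits that left out a library. The call against siLATS1/2 passed in 2 of 8, those without a siControl library (adjusted p of up to 0.168), and was lost when only the groups compared were fitted (adjusted p = 0.0941, limma). The proteoglycan gene SDC1 fell in siLATS1/2 (-0.58) and siLATS1/2/p53 (-0.49), and SDC4 fell in sip53 (-0.53) and siLATS1/2/p53 (-0.52). The integrin gene ITGA3 rose in siLATS1/2 (0.48). ITGA3 (-0.42) and SDC4 (-0.43) fell in siLATS1/2/p53 against siLATS1/2. Of these 7 calls, that of SDC4 in siLATS1/2/p53 against siControl passed whichever library was left out, and the others passed in 2 to 5 of 8 such fits, with adjusted p of up to 0.163 (limma).

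Matrix metalloproteinases, some of which plasmin can activate, were tested in 10 genes with their inhibitors. In siLATS1/2 against siControl 0 rose and 2 fell, MMP28 (-0.83, adjusted p = 0.0082, limma) and the inhibitor gene TIMP1 (-0.76, adjusted p = 0.0445, limma), and in sip53 0 passed in limma, with 3 at an unadjusted p under 0.05. Of all entries, 21.4% had such an unadjusted p in sip53. With the batch as a block 4 rose and 3 fell in siLATS1/2, and 2 rose and 1 fell in sip53. In that fit 10.5% of all entries rose and 21.4% fell in siLATS1/2, and 16% rose and 10% fell in sip53. Without the block, 2.81% of all entries rose and 4.89% fell in siLATS1/2, and 1.76% rose and 2.1% fell in sip53. The shares in siLATS1/2/p53 against siControl were 9.07% and 5.48%. In siLATS1/2/p53 against siControl 3 rose, the membrane metalloproteinase genes MMP14 (0.50) and MMP15 (1.502) and the inhibitor gene RECK (0.59), and 2 fell, MMP28 (-0.47) and TIMP3 (-0.71). MMP19 (-0.82) and TIMP3 (-0.71) fell in siLATS1/2/p53 against siLATS1/2, where 3.22% of all entries fell. These last 2 genes were named after their values were seen. The medians were 0.26 in siLATS1/2, 0.01 in sip53 and -0.02 in siLATS1/2/p53. The TIMP1 fall was lost after rescaling (-0.67, adjusted p = 0.0590, limma) and passed in 2 of 8 fits that left out a library, and the MMP28 fall in siLATS1/2 was lost without siLATS1/2 replicate 1 (-0.74, adjusted p = 0.0738, limma). Against siControl, the siLATS1/2/p53 calls passed in 6 of 8 such fits for MMP14, 5 for MMP15, 4 for RECK and 3 each for MMP28 and TIMP3. MMP14 was lost without siControl replicate 1 or siLATS1/2/p53 replicate 2 (0.46 and 0.42), MMP15 without siControl replicate 2 or either siLATS1/2/p53 library (adjusted p of up to 0.109), and RECK without any 1 of the 4 libraries compared (up to 0.0778). MMP28 was lost without siControl replicate 2 or any sip53 or siLATS1/2/p53 library (up to 0.135), and TIMP3 without the same libraries (up to 0.194). The RECK and MMP28 calls were also lost when only the groups compared were fitted (adjusted p = 0.0715 and 0.0763, limma). The falls of MMP19 and TIMP3 against siLATS1/2 each passed in 2 of 8, those without a siControl library (adjusted p of up to 0.239 and 0.202, limma), and that of MMP19 was lost when only the groups compared were fitted (0.0615).

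**Figure D4:**
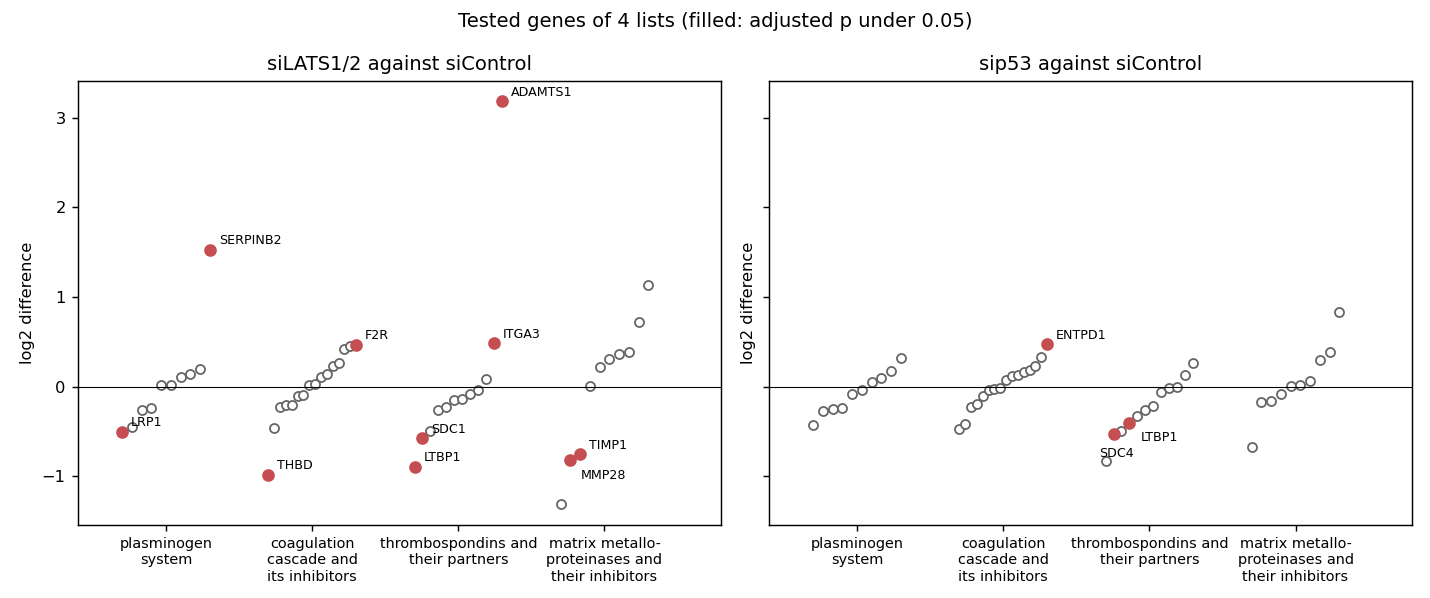
Log2 difference from siControl (vertical axis) of each tested gene in 4 lists of related genes, in siLATS1/2 (left) and sip53 (right), sorted within a list; filled red points with names have an adjusted p under 0.05 in limma. SERPINB2 (1.53) and ADAMTS1 (3.19) stand above the rest in siLATS1/2, and the open points lie on both sides of 0 in both groups.

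The entries whose levels followed each member most closely over the 8 libraries were found by Pearson's r among 6977 entries with an SD of at least 0.2; the points share libraries, batches and group differences. F3 and THBS1 followed each other (r = 0.989), and ADM, which encodes the peptide hormone adrenomedullin, was among the 3 closest to both (r = 0.991 with each). PISD was the closest to THBS1 (r = 0.996), RNF43 to PLAT (r = 0.988), COCH to PLAUR (r = 0.989) and JUN, the gene of an AP-1 subunit, to PLAU (r = 0.952). EPM2AIP1 was the closest to SERPINE2 (r = 0.966) and ENPP1 to TFPI (r = 0.997). Among the members, PLAT followed F3 (r = 0.963) and THBS1 (r = 0.946), and TFPI followed SERPINE2 (r = 0.862), the pair that differed between batches.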

How the data were processed

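Polyadenylated RNA of 8 MCF10A libraries was sequenced after TruSeq RNA v2 preparation, with all 8 multiplexed on 1 lane, per the labels' protocols. The submitters' processing notes name TopHat and the hg19 build. Their versions, the counting program, the annotation and the scaling are not named in the labels or files. The authors deposited log2 levels with a lower limit of 5. The base of the log is inferred from the values: low linear values were more evenly spaced under base 2 (evenness 0.449 to 0.803) than under base e (0.237 to 0.585) or 10 (0.266 to 0.409). The summed linear values were 23700000 to 24900000 per library, so the lower limit corresponds to an estimated 14.6 to 50 reads. The per-sample files equal the series table in 8 of 8 libraries.

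The 8 members and the lists of related genes were chosen with earlier results of these data known. Levels were tested as deposited, with no pseudocount, with limma 3.58.1 (R 4.3.3; mean-variance trend, 4 residual degrees of freedom), in 1 fit of the 4 groups over 12315 entries above the limit in at least 2 libraries. P-values were adjusted by Benjamini-Hochberg. The script was tested on simulated data. Named were the members, genes checking the siRNAs, up to 5 genes of each list that passed in any of 6 comparisons, with the smallest p, and the 3 closest entries by correlation. Some genes that these lists and this rule would take are not reported here, and the counts over lists leave them out.

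The replicate number marks a batch of cells per the labels, so it pairs the samples. Deviations of same-numbered libraries from their group means correlated at 0.57 to 0.73 over 6 pairs of groups. A fit blocked on the batch was an alternative. Others were rescaling by medians of ratios, filters on low values, a pseudocount of 32, fits of only the groups compared and leaving out libraries. Reads of genes overlapping on opposite strands cannot be told apart with this kit: PLAU overlaps C10orf55 (5.16 in siControl replicate 1, otherwise at the limit), THBS1 overlaps FSIP1 (5.08 in siControl replicate 1, otherwise at the limit) and TFPI2 overlaps GNGT1 (at the limit throughout). THBS1, TFPI and TFPI2 also overlap the antisense genes AC037198.2, AC007319.1 and AC002076.1, in this order. These are not among the measured entries, so their levels could not be checked.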

Additional observations from a re-analysis of the deposited data

Results flagged for a closer look

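The effect of LATS1/2 siRNA on PLAU differed with and without p53 siRNA by 0.62 on the log2 scale, which passed only when the fit was blocked on the batch (adjusted p = 0.0277, limma) and not without it (adjusted p = 0.74), nor with the block and rescaling together (0.52, adjusted p = 0.110). The LATS1/2 effect was 0.07 without p53 siRNA and 0.68 with it, and the difference of these effects was 0.45 in batch 1 and 0.78 in batch 2.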

How the results depend on the processing

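The directions of the called differences of F3, THBS1, PLAU, PLAT and PLAUR held under every alternative run, and the limit is the 2 libraries a group. The part of depth was not tested, because siControl and siLATS1/2/p53 keep only 1 library each in the fit without the 2 shallowest libraries. Without those (siControl replicate 1 and siLATS1/2/p53 replicate 1), members called were 0 in siLATS1/2, 0 in sip53 and 0 in siLATS1/2/p53 against siControl, 0 against siLATS1/2 and 1 against sip53 (THBS1, 2.10, adjusted p = 0.0446, limma); calls among all entries were 10, 0, 14, 0 and 22. The sizes stayed near those reported (THBS1 1.91 and F3 1.77 in siLATS1/2, adjusted p = 0.0599 and 0.0626), and the fit has fewer samples.

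With the replicate block, the members called were 3 in sip53 and 1 in the interaction, and all entries called were 3937, 3199, 4832, 5361 and 2720 in the same 5 comparisons and 250 in the interaction. With the block and rescaling together (chosen after seeing the data) they were 3412, 2975, 4659, 4153, 2737 and 65, with 4 members called in sip53, 5 in siLATS1/2/p53 against siLATS1/2 and 0 in the interaction. Without rescaling, the block changed no other call of a member than those given with PLAU, THBS1 and TFPI. Fits of only the groups compared called 243, 18, 981, 1176 and 214 entries, with 0 members in sip53, 1 in siLATS1/2/p53 against siLATS1/2 and 2 against sip53; testing only entries above the limit in all 8 libraries called 3 members in sip53. Leaving out 1 library gave 84 to 759, 23 to 186, 626 to 1350, 34 to 1896, 74 to 424 and 0 to 0 entries and 2 to 4, 0 to 2, 3 to 4, 0 to 3, 2 to 5 and 0 to 0 members in the 6 comparisons.

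Rescaling moved the median of all entries in siLATS1/2/p53 against siLATS1/2 from 0.15 to 0.00163, where F3 (-0.72, adjusted p = 0.0246, limma), THBS1 (-0.74, 0.0334) and PLAUR (0.56, 0.0166) still passed. The share of calls that were higher went from 36.5% to 55.4% in siLATS1/2, 45.7% to 26.3% in sip53 and 62.3% to 47.5% in siLATS1/2/p53 against siControl, and from 77.9% to 45.8% in siLATS1/2/p53 against siLATS1/2.

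Only differences that had not passed in the fit without the block changed sign, and the cause was not tested. A fit without 1 library holds only 1 batch in that library's group. TFPI in siLATS1/2 against siControl, which passed with the block, was -0.42 in batch 1 and -0.29 in batch 2. Rescaling, with and without the block, reversed PLAU in siLATS1/2/p53 against siLATS1/2 (-0.086), SERPINE2 in sip53 (-0.023) and the THBS1 interaction (-0.017). Without the 2 shallowest libraries PLAT in sip53 was 0.039, SERPINE2 in siLATS1/2/p53 against siControl 0.19, and TFPI 0.42 in siLATS1/2, 0.49 in sip53 and -1.54 in the interaction. Leaving out 1 library at a time gave PLAT -0.11 to 0.088 in sip53, PLAU -0.055 to 0.33 in siLATS1/2/p53 against siControl and -0.12 to 0.26 against siLATS1/2, and a THBS1 interaction of -0.10 to 0.26. SERPINE2 ranged over -0.42 to 0.60 in siLATS1/2, -0.47 to 0.55 in sip53 and -0.66 to 0.36 in siLATS1/2/p53 against siControl, -0.54 to 0.055 against siLATS1/2, -0.52 to 0.15 against sip53 and -0.79 to 0.23 in the interaction. TFPI ranged over -1.13 to 0.42, -1.16 to 0.60, -1.40 to 0.65, -1.04 to 1.00, -1.12 to 0.93 and -0.76 to 1.28 in the same order.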
